A study of Mus musculus with 12 samples.

Results

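Guidance genes, the ligands and receptors by which neighbouring cells attract, repel or hold on to each other, were followed from the proepicardium (PE) to the embryonic epicardium (EE) of the mouse. They were the rows of the mRNA count table whose symbols name an Eph receptor, an ephrin, a Robo, a Slit, a netrin of the Ntn series or an Unc5 receptor. This gave 37 of 55228 genes, of which 15 encode ligands and 22 encode receptors. At least 1 read was counted for 36 of them, and 33 were detected in at least 3 of the 6 mRNA libraries and were tested. The EE libraries came from epicardial cells sorted by FACS from embryos at E10.5, and the PE libraries from proepicardial organs dissected by hand at E9.5, with 3 mRNA and 3 small RNA libraries per stage. All embryos were of the strain labelled Wt1Cre-EGFP, in which Wt1, a transcription factor gene of the epicardium, carries the reporter, no treatment was given, and each sample pooled at least 5 embryos. The gate of the sort is not given in the sources used here. Every EE library was sorted and every PE library dissected, so the effect of age cannot be told apart from that of how cells were obtained. P-values measure the spread between these pools.

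Ephrins are held in the membrane of 1 cell and bind Eph receptor tyrosine kinases on the next. The A-class ephrins do so by a lipid anchor and the B-class by a transmembrane stretch, and both partners can signal. Slits are large secreted proteins that bind Robo receptors, with heparan sulphate as a co-factor, and mostly repel. Netrins are laminin-related secreted proteins that attract through Dcc and neogenin and repel through Unc5 receptors, and Unc5 receptors also bind the membrane proteins Flrt2 and Flrt3. In the mouse these genes are known from axon guidance and blood vessel growth, and Slit3 and Robo1 are needed for the pericardium and the caval veins.

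The EE and PE libraries held 18464362 to 25814015 mRNA counts. The replicate EE3 was the shallowest, with 18763 genes detected against 22186 to 24842 in the other 5, and it stood apart from EE1 and EE2 on the second principal component, which carried 17.7% of the variance. By edgeR, whose test is described further on, 13 of the 18 genes listed as marking epicardium had a higher level in EE, with Wt1 at 52.2, 69.6 and 110 CPM in EE and 18.8, 16.9 and 19.8 CPM in PE. CPM are counts scaled to a common library total after TMM adjustment. Markers of other cells moved as well. In EE, 9 of 16 endothelial markers, 17 of 18 hepatoblast markers, 5 of 12 septum transversum markers and 5 of 9 gut endoderm markers tested were lower, and 1 of each of the last 2 lists was higher. Higher were 7 of 16 cardiomyocyte markers and 2 of 9 neural and neural crest markers tested, the last list summing to 178 to 353 CPM in EE and 40.4 to 70.4 CPM in PE. Also higher were 13 of 19 immediate early genes, which were listed for stress and not for a cell type. Of 10 macrophage and leukocyte markers 1 was higher and 1 lower. Over all genes tested, 4.52% were higher and 4.86% lower. In bulk samples fewer cells of a type and less RNA per cell cannot be told apart. The part of these cells, or of stress, in the results on guidance genes was not tested. For some genes marker values are given beside them.

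The sequences that bear on the results come first. They are from RefSeq on GRCm38.p6 for the promoters and the miRNA, and from GENCODE transcripts on GRCm38 for the sites. Slit2 and Slit3 each hold a hairpin of miR-218 in an intron, Mir218-1 in intron 16 of Slit2 at chr5:48223942-48224051 and Mir218-2 in intron 14 of Slit3 at chr11:35616816-35616925, both on the strand of their host. Both hairpins give the same 5p arm, shown first with its seed, bases 2 to 8, in capitals and then in capitals within each hairpin. The arm is of interest here because miR-218 is known to act on Robo1 and Robo2.
miR-218-5p: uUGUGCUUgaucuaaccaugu
Mir218-1 hairpin, in Slit2: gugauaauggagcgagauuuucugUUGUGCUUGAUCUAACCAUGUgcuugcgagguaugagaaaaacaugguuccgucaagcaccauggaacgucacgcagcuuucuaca
Mir218-2 hairpin, in Slit3: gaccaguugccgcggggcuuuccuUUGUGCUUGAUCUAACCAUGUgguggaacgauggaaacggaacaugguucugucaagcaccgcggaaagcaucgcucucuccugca

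The letters that pair with that seed, AAGCACA, were looked up on the sense strand in the 3' UTR of the longest coding transcript of each gene. They stood in 12 of the 37 members (32.4%), against 13.6% of 20927 genes with a 3' UTR. The 3' UTRs of the members had a median of 1538 bases, against 935 over all genes, and longer stretches hold any 7 letters more often. Robo1 held them once, Robo2 at 2 places and Robo3 once, and Robo4 did not hold them. The stretches of Robo1 at chr16:73045336-73045365 (plus strand) and of Robo2 at chr16:73895348-73895377 and chr16:73893022-73893051 (minus strand) are shown with those letters in capitals. A match of letters is a description and not a site in use.
Robo1: ttttggttttaaAAGCACAatcactaaact
Robo2, nearer the stop codon: ttatttggtgatAAGCACAaatctctactc
Robo2, farther from the stop codon: cacggcagacccAAGCACAgcttctttcag

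Promoters are given for the Slit gene that changed and the one that did not, and for 2 receptor genes of blood vessels. Each is the 250 bases before a RefSeq start, with the start beyond the right-hand end. Capitals mark motifs, searched on both strands, so that a motif of the minus strand shows as its complement read backwards. The box near many starts is TATAAA. The box bound by NF-Y is CCAAT. The GC box of Sp factors is GGGCGG, and the letters shared by Egr factors and Wt1 are GCGNGGGCG. The Ets letters CCGGAAG, the Gata letters AGATAA and the Tead letters GGAATG were also searched and are not in these 4 windows. Slit2 at chr5:47982905-47983154 (plus strand) held 3 GC boxes, from bases 170, 190 and 202, the Egr and Wt1 letters from base 186, which run into the GC box at 190, and TATAAA from base 223. Slit3 at chr11:35121206-35121455 (plus) held 6 GC boxes on the minus strand and the Egr and Wt1 letters once, which run into the last of them. Robo4 at chr9:37401722-37401971 (plus) held only a CCAAT box, on the minus strand from base 40, and Ephb4 at chr5:137349859-137350108 (plus) held 4 GC boxes and a CCAAT box.
Slit2: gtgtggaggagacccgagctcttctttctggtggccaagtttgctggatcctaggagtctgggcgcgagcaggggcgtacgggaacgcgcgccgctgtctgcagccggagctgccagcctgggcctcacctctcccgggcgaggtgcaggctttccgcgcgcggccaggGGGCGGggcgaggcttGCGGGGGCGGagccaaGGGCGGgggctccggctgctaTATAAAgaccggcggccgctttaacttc
Slit3: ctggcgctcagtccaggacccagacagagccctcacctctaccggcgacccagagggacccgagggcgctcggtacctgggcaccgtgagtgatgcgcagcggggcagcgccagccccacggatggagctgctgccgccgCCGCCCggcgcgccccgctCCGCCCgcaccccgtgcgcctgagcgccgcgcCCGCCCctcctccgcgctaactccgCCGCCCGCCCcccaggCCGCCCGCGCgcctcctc
Robo4: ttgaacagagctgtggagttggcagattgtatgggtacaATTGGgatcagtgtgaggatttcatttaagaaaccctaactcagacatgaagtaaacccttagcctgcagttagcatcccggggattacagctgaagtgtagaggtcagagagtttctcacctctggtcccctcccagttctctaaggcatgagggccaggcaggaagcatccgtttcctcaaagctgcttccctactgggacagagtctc
Ephb4: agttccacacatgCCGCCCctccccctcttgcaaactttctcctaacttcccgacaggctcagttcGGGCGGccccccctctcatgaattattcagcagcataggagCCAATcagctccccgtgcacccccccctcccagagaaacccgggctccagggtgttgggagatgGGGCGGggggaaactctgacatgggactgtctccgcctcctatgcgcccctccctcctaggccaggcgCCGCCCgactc

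Windows were found for 33 of the 37 members, 38 windows in all. GC boxes stood in 26 of them (68.4%), against 32.7% of all 32851 windows of that length in the table. The Egr and Wt1 letters stood in 7 (18.4%) against 4.7%, CCAAT in 13 (34.2%) against 33.8%, TATAAA in 2 (5.3%) against 12.4%, GGAATG in 5 (13.2%) against 12.6%, AGATAA in 3 (7.9%) against 10% and CCGGAAG in 1 (2.6%) against 6.9%. The share of G and C was 69.6% for Slit2, 78.8% for Slit3, 64.0% for Ephb4 and 49.6% for Robo4, against a median of 52.4% over all windows. GC boxes and the Egr and Wt1 letters are made mostly of G and C, and windows rich in these bases hold them more often. The shares above were not matched for this. The ratio of CpG found to CpG expected from base composition was above the median of all windows, 0.37, in 35 of the 38. It was 0.85 for Slit2, 0.95 for Slit3 and 0.50 for Ephb4, and only 0.13 for Robo4, below which lay 19.4% of all windows. The Robo1 window and the Robo2 window next to the annotated gene held none of the 7 motifs.

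Of the 33 members tested, 6 passed the test between stages. Slit2, a Slit ligand, was higher in EE, and Robo1, Robo2 and Robo4, receptors of the Robo family, and Ephb1 and Ephb4, receptors for B-class ephrins, were lower. The comparison used edgeR's quasi-likelihood test on the counts, with Benjamini-Hochberg adjustment over all 23853 genes tested. A gene passed when its adjusted p was below 0.05 and its level differed by more than about 1.5-fold either way. The count of 1 member higher is 3.03% of those tested, against 4.52% of all genes tested, and the 5 lower are 15.2%, against 4.86%. The libraries of the stages did not overlap for 18 members. EE lay above PE for 4 of these (12.1%, against 13.4% of all genes tested) and below PE for 14 (42.4%, against 18.6%). The median log2 fold change of the members was -0.57 and that of all genes tested -0.06, with 22 members negative and 11 positive.

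Ligands and receptors were also counted apart. Of 13 ligands tested, 1 was higher (7.69%, against 4.52% of all genes tested) and 0 lower (against 4.86%). The median log2 fold change of the ligands was -0.09. Of 20 receptors tested, 0 were higher (against 4.52%) and 5 lower (25%, against 4.86%), and their median was -0.74. At an unadjusted p under 0.05 edgeR gave 3 ligands higher and 3 lower, and 1 receptor higher and 9 lower. The share of all genes at that unadjusted p was not counted, so counts at it, here and further on, have no comparison. DESeq2 called 2 ligands higher and 3 lower, and 0 receptors higher and 6 lower. Of all 23853 genes tested, DESeq2 called 1734 higher and 1924 lower, more than edgeR in both directions. Whether ligands and receptors differ from each other was not tested.

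Summed over a subfamily and divided by transcript length, so that genes of different size count alike, the receptors lay lower in EE in 3 of 4 subfamilies. EphB receptors summed to 9.95, 7.05 and 6.55 CPM per kb in EE and 15.5, 18.8 and 14.5 CPM per kb in PE. Robo receptors summed to 4.05, 4.80 and 2.001 CPM per kb in EE and 10.4, 17.2 and 16.2 CPM per kb in PE. EphA receptors were closer, at 14.6 ± 1.93 CPM per kb in EE and 19.3 ± 0.416 CPM per kb in PE (SD, n = 3 each). None of these 3 sums overlapped between stages, and there is no share over all genes to set beside sums. Of the 7 EphA genes tested 0 passed, and 5 had negative and 2 positive log2 fold changes. The Unc5 receptors, at 15.02 ± 0.973 CPM per kb in EE and 12.1 ± 2.69 CPM per kb in PE, overlapped.

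**Figure D1:**
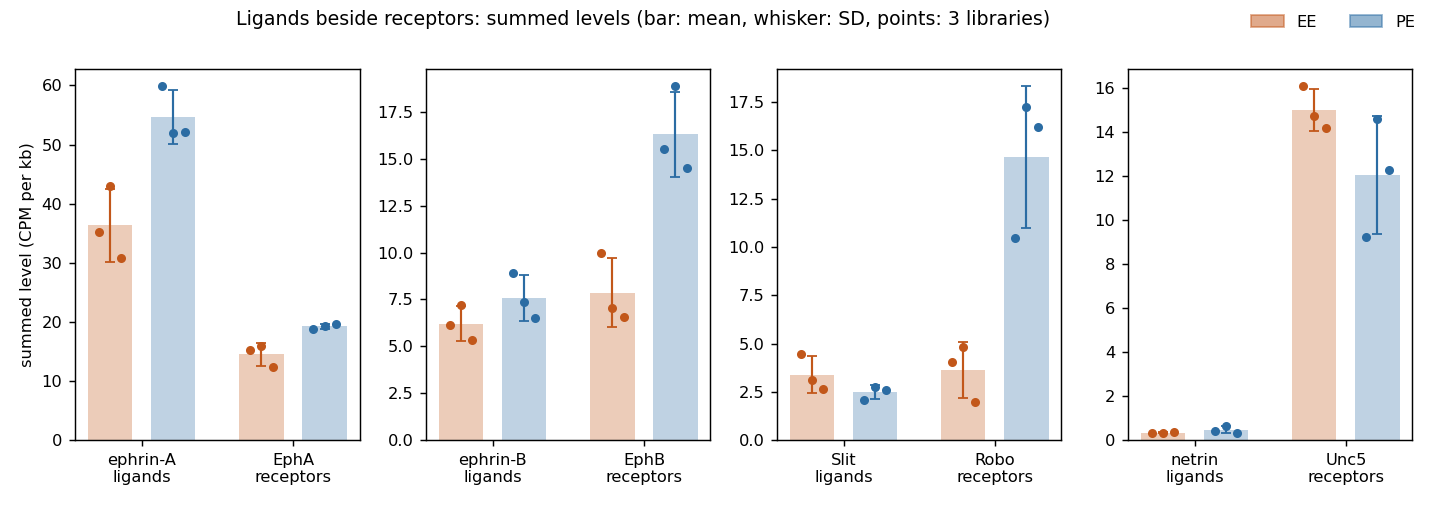
Summed levels for each ligand subfamily beside its receptor family, with EE left of PE. Levels are in CPM per kb, scaled counts per kilobase of the longest coding transcript. Bars are means, whiskers SD, and points the 3 libraries. The sums of Robo, EphB and EphA receptors and of ephrin-A ligands lie lower in every EE library than in any PE library. Those of Slit, ephrin-B and netrin ligands and of Unc5 receptors overlap. Single genes within the ephrin-A and EphA sums differ in direction.

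Among the ligands, ephrin-A genes summed to 35.2, 43.0 and 30.8 CPM per kb in EE and 59.9, 51.9 and 52.1 CPM per kb in PE, which did not overlap. Efna1 made up 47.4% of this sum in EE and 64.2% in PE. Of the 5 ephrin-A genes, 0 passed, and 2 had negative and 3 positive log2 fold changes. Ephrin-B genes, at 6.22 ± 0.928 CPM per kb in EE and 7.59 ± 1.22 CPM per kb in PE, overlapped. Slit genes, at 3.40 ± 0.947 CPM per kb in EE and 2.48 ± 0.359 CPM per kb in PE, also overlapped. Netrin genes were the lowest subfamily, with sums of 0.359, 0.320 and 0.390 CPM per kb in EE and 0.450, 0.668 and 0.355 CPM per kb in PE. In EE the Slit sum, 3.40 CPM per kb, was close to the Robo sum, 3.62 ± 1.45 CPM per kb, whereas in PE the Robo sum was 14.6 ± 3.67 CPM per kb. The Robo sum includes Robo3 and Robo4, and which Robo genes bind Slit was not measured here. No test was run on sums.

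**Figure D2:**
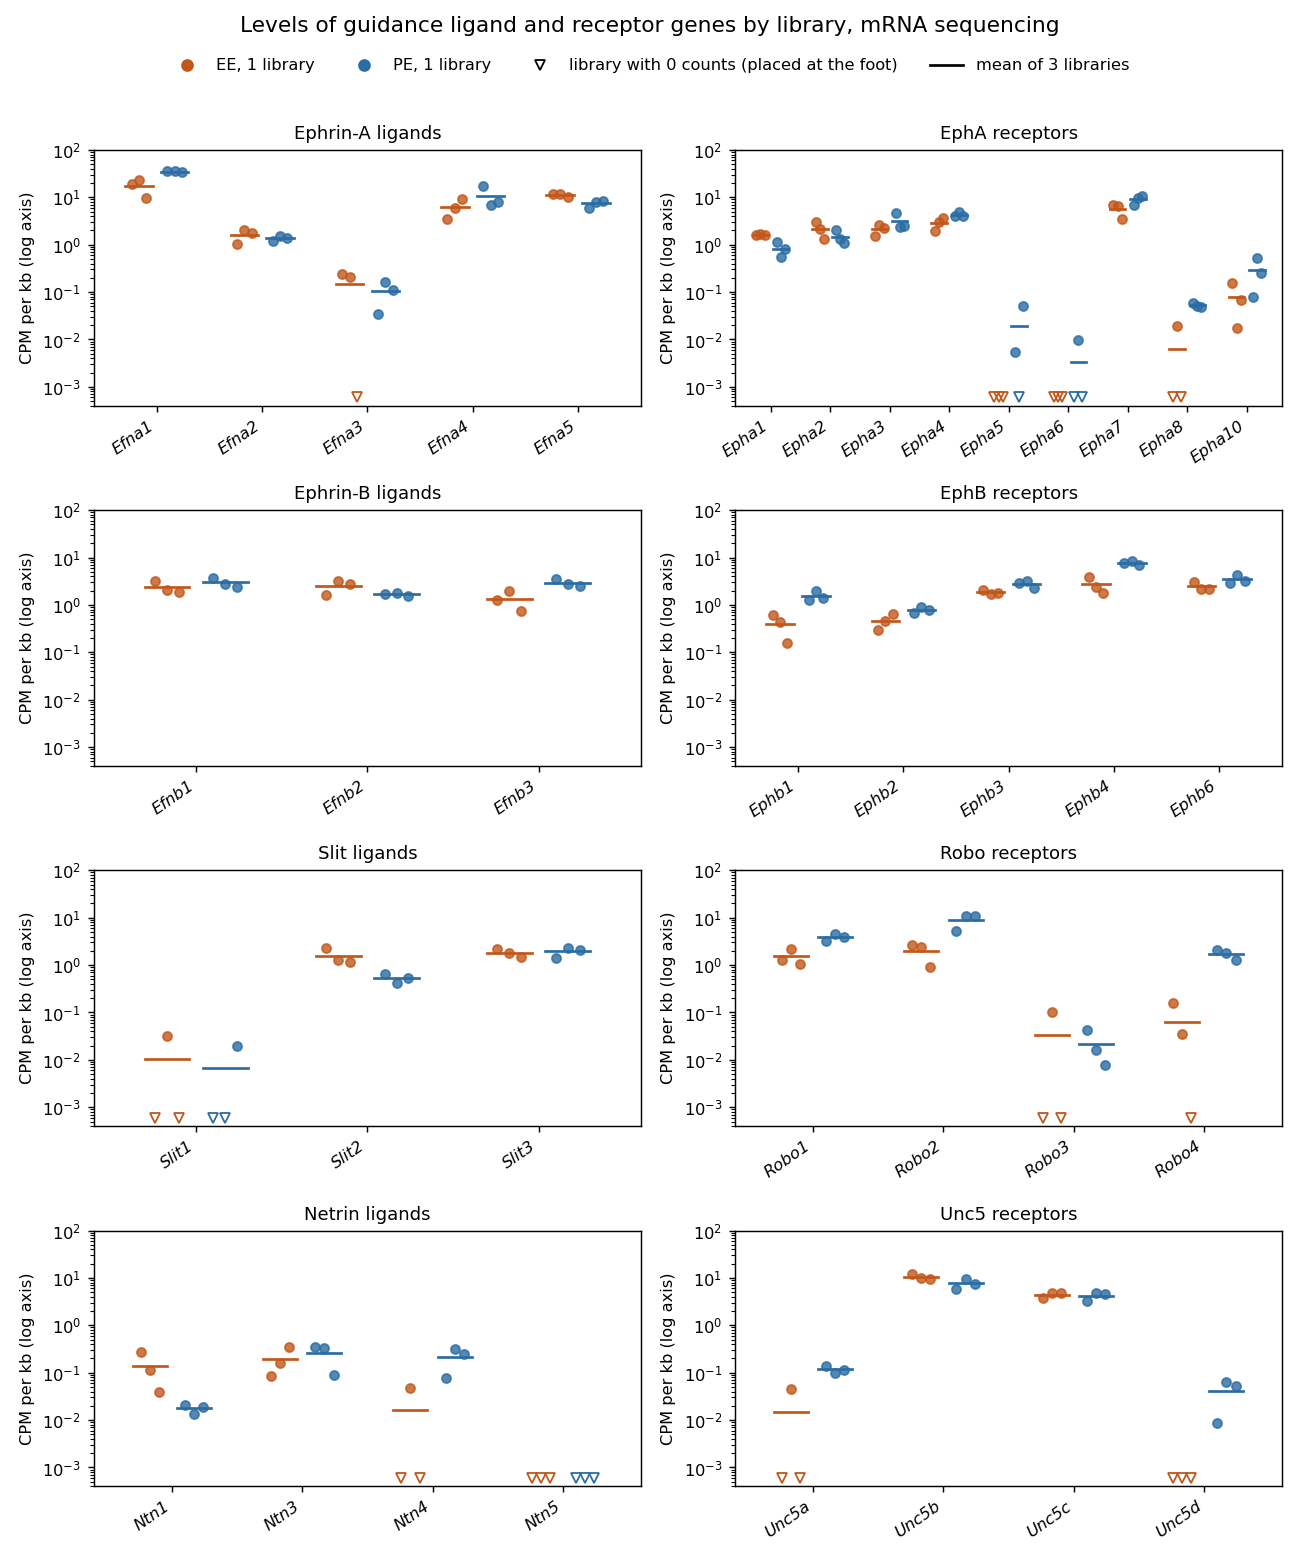
Level of each of the 37 members in each library, in CPM per kb on a log axis, with EE left of PE for each gene and ligand subfamilies beside their receptors; lines are means and open triangles mark libraries with 0 counts. Efna1 has the highest mean in both stages, while Slit1, Robo3, Epha5, Epha6, Ntn5 and Unc5d lie at or near 0 counts.

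Slit2, which repels migrating cells and axons through Robo receptors, was at 22.8, 12.9 and 11.4 CPM in EE and 6.44, 4.22 and 5.36 CPM in PE. Every EE library lay above every PE library, and EE1 was the highest. The log2 fold change was 1.55 (SE 0.35), a 2.94-fold higher level (adjusted p = 0.0237 from edgeR). The gene lies at chr5:47983138-48307733 on GRCm38, as annotated by GENCODE, plus strand. The change was higher in 3 of 3 EE libraries, but the adjusted p rose to 0.0652 without EE1, 0.0535 without EE2, 0.0981 without PE2 and 0.0843 without PE3.

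Slit3, the Slit of the pericardium and the caval veins, did not pass, at 11.4, 9.27 and 7.82 CPM in EE and 7.45, 12.1 and 10.8 CPM in PE (log2 fold change -0.09, SE 0.31, adjusted p = 0.892 from edgeR). The libraries overlapped. Per kb of transcript the Slit genes stood at 1.81 ± 0.340 CPM per kb for Slit3 and 1.57 ± 0.621 CPM per kb for Slit2 in EE, which overlap, and at 1.94 ± 0.462 CPM per kb for Slit3 and 0.536 ± 0.112 CPM per kb for Slit2 in PE, which do not. The ratio of Slit2 to Slit3 counts within a library, which no scaling can move, was 2.004, 1.39 and 1.45 in EE and 0.865, 0.347 and 0.497 in PE. This ratio and those given further on were chosen after the values were seen and carry no test. Slit1, a Slit of the nervous system, had counts of 0, 4 and 0 in EE and 0, 0 and 3 in PE and was not tested.

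The mature product of the Slit introns was too rare to follow. miR-218-5p had 1, 0 and 4 counts in the EE small RNA libraries, which held 35576 to 56842 counts, and 8, 24 and 0 counts in the PE libraries, which held 119708 to 152075. With counts in all 3 libraries of neither stage it did not enter the fit, and a difference was not detectable at this depth. The 3p arms, which tell the hairpins apart, had 0 counts in EE for both and 0 counts for miR-218-1-3p and 1 for miR-218-2-3p in PE. A count of 0 in the small RNA libraries allows up to 3 counts, or 49.9 to 73.6 CPM in EE and 20.4 to 27.9 CPM in PE, which covers counting error only.

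Robo2, a receptor that turns Slit binding into repulsion, had the highest mean of the Robo genes in both stages, with Robo1 just above it in EE3. It was at 22.7, 20.9 and 7.99 CPM in EE and 44.1, 93.0 and 94.4 CPM in PE. EE3 and PE1 were the low libraries of their stages, and the stages did not overlap. The log2 fold change was -2.16 (SE 0.42, adjusted p = 0.0123 from edgeR), and without any 1 library the adjusted p stayed between 0.00679 and 0.0433. Robo1, the receptor known from the mouse pericardium, was at 9.49, 16.9 and 8.10 CPM in EE and 24.4, 34.9 and 29.8 CPM in PE. Its log2 fold change was -1.37 (SE 0.32, adjusted p = 0.0274 from edgeR), lower in 3 of 3 EE libraries. The adjusted p of Robo1 was 0.0768 without EE1, 0.0526 without EE3, 0.102 without PE2 and 0.0811 without PE3. Both genes lie on chromosome 16, Robo1 at chr16:72308306-73046095 on the plus strand and Robo2 at chr16:73891839-74411825 on the minus strand.

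Within a library, Robo2 counts were 2.39, 1.24 and 0.986 times those of Robo1 in EE and 1.81, 2.66 and 3.17 times in PE, so that the ratio overlapped between stages. Slit2 counts stood at 1.00, 0.618 and 1.42 times those of Robo2 in EE and at 0.146, 0.0454 and 0.0567 times in PE. Against Robo1 the Slit2 counts were 2.397, 0.764 and 1.40 times as high in EE and 0.264, 0.121 and 0.180 times in PE. These are ratios of counts and not of molecules, since the transcripts differ in length. In every EE library the ligand stood higher against both receptors than in any PE library. This outcome was fixed by the levels, since Slit2 lay above PE and Robo1 and Robo2 below PE in every EE library.

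Robo4, a Robo of endothelial cells, had the largest fold change of the members that passed. It was at 0.780, 0.177 and 0 CPM in EE, from 18, 4 and 0 counts, and at 10.1, 8.90 and 6.33 CPM in PE, from 251, 228 and 169 counts. The log2 fold change was -4.64 (SE 0.82, adjusted p = 0.00768 from edgeR), and without any 1 library the adjusted p stayed between 0.00329 and 0.0433. Without EE1, which held most of its EE counts, its log2 fold change was -6.36, and it lay between -4.82 and -4.12 without any other library. The gene lies at chr9:37401897-37415115, beside Robo3 at chr9:37415669-37433246 on the other strand. Robo3, a receptor of crossing axons, had counts of 0, 11 and 0 in EE and 5, 2 and 1 in PE and did not pass (adjusted p = 0.842 from edgeR).

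Most endothelial markers moved in the same direction as Robo4. Of 16 listed markers, 9 were lower in EE (56.25%, against 4.86% of all genes tested) and 0 higher (against 4.52%) by edgeR. Negative log2 fold changes were found for 13 and positive ones for 3. At an unadjusted p under 0.05 there were 13 lower and 0 higher, and DESeq2 called 11 lower and 0 higher. Pecam1, an adhesion molecule of endothelium, was at 3.68, 6.61 and 2.68 CPM in EE and 23.7, 35.4 and 30.4 CPM in PE, and Cdh5, the cadherin of endothelial junctions, at 2.04, 1.996 and 0.913 CPM in EE and 10.1, 9.41 and 10.3 CPM in PE. The list summed to 268.7 to 448.6 CPM in EE and 639.0 to 717.1 CPM in PE. Cldn5 was at 0 counts in all EE libraries, and Tek, which made up the most of the EE sum, did not pass, at 277, 227 and 145 CPM in EE and 109, 195 and 179 CPM in PE.

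Robo4 counts were 0.383, 0.0889 and 0 times those of Cdh5 in EE and 1.00, 0.946 and 0.612 times in PE. Against Pecam1 they were 0.212, 0.0268 and 0 times in EE and 0.427, 0.251 and 0.209 times in PE. The ratio to Cdh5 did not overlap between stages, while that to Pecam1 did, with EE1 just above PE3. The part of endothelial cells in the result on Robo4 was not tested.

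Ephb4, the receptor of veins for ephrin-B2, was at 17.3, 10.1 and 7.87 CPM in EE and 33.7, 36.4 and 29.9 CPM in PE. Every EE library was below every PE library. The log2 fold change was -1.50 (SE 0.31, adjusted p = 0.0162 from edgeR), and the adjusted p was 0.0691 without EE2 and 0.0533 without PE2. The gene lies at chr5:137350109-137378669, plus strand, with 0.7% of the exon sequence shared with Zan on the opposite strand. Against the Cdh5 counts of the same library, Ephb4 counts were 8.47, 5.07 and 8.62 times as high in EE and 3.35, 3.87 and 2.89 times in PE. This ratio ran the other way from the level, with every EE library above every PE library. Against Pecam1 the ratio was 4.68, 1.53 and 2.94 in EE and 1.42, 1.03 and 0.985 in PE.

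Ephb1, an EphB receptor known from retinal axons, was lower at 2.86, 1.996 and 0.742 CPM in EE, against 5.80, 9.25 and 6.67 CPM in PE (log2 fold change -1.94, SE 0.50, adjusted p = 0.0392 from edgeR). The stages did not overlap, and EE3 was the lowest. The gene lies at chr9:101922128-102354693, minus strand. Of the 6 members that passed it had the highest adjusted p, which was 0.0956 without EE2, 0.0565 without PE1, 0.160 without PE2 and 0.0971 without PE3.

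**Figure D3:**
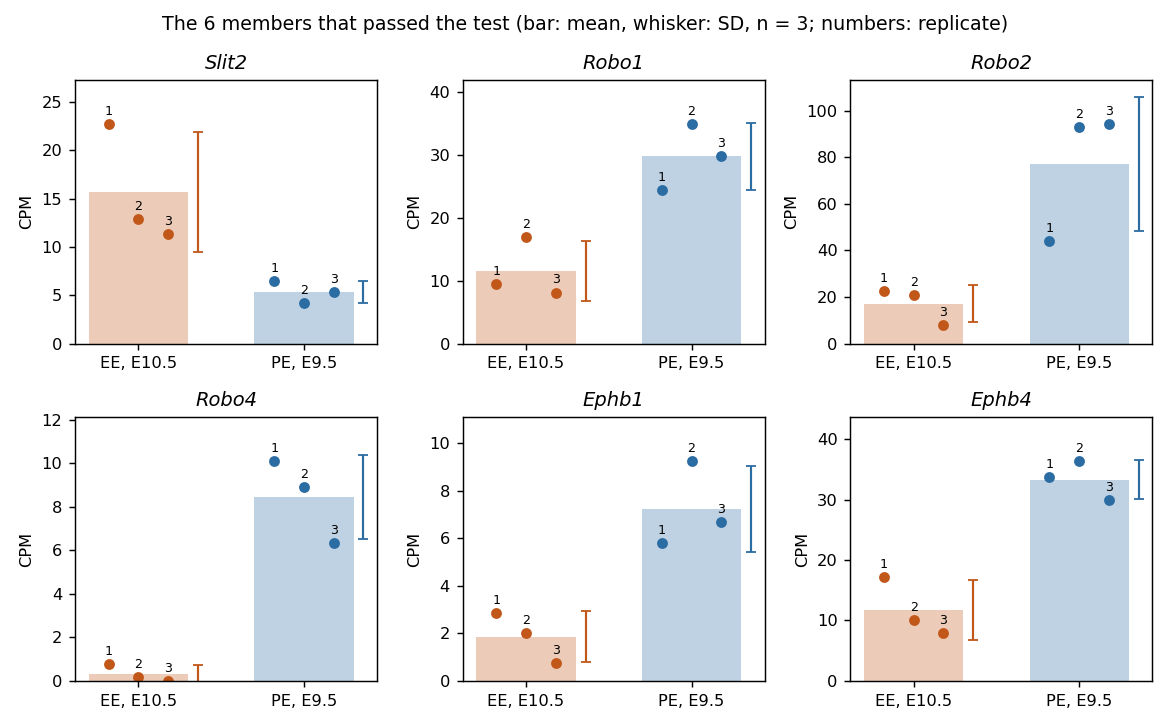
Levels in CPM of the 6 members that passed the test, on linear axes from 0, with the 3 EE libraries left of the 3 PE libraries and numbered by replicate; bars are means and whiskers SD. Slit2 lies higher in all EE libraries, and Robo1, Robo2, Robo4, Ephb1 and Ephb4 lie lower in all EE libraries than in any PE library.

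The other EphB receptors had negative log2 fold changes without passing. Ephb2, at -0.77 (SE 0.36), Ephb3, at -0.60 (SE 0.27), and Ephb6, at -0.51 (SE 0.29), had adjusted p-values of 0.224, 0.212 and 0.329 from edgeR. The EE libraries lay below the PE libraries for Ephb2 and Ephb3 and overlapped them for Ephb6, which carries an inactive kinase. Per kb, Ephb4 led the subfamily in both stages, with 34.5% of the EE sum and 47.2% of the PE sum. Its EE levels, 1.81 to 3.98 CPM per kb, overlapped those of Ephb6 and Ephb3, whereas its PE levels, 6.89 to 8.38 CPM per kb, did not overlap those of any other EphB gene.

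The ligands of the EphB receptors gave no call with edgeR, and DESeq2 called 1 of them, Efnb3, lower. Efnb1 was at 10.4, 6.83 and 5.99 CPM in EE and 12, 9.17 and 7.87 CPM in PE. Efnb2, the arterial partner of Ephb4, was at 12.01 ± 3.72 CPM in EE and 7.97 ± 0.553 CPM in PE, with a log2 fold change of 0.59 (SE 0.31, adjusted p = 0.285 from edgeR). Efnb3, a ligand of midline repulsion in the nervous system, was at 4.24 ± 1.93 CPM in EE and 9.40 ± 1.58 CPM in PE (SD, n = 3 each). It was below PE in all EE libraries at a log2 fold change of -1.14 (SE 0.39) and an adjusted p of 0.105 from edgeR, which DESeq2 moved to 0.0295. In the 6 fits that left out 1 library the adjusted p of Efnb3 was 0.067 to 0.252 from edgeR. Per kb, the order of the ephrin-B genes was Efnb2, Efnb1 and Efnb3 in EE and Efnb1, Efnb3 and Efnb2 in PE, with overlapping libraries between neighbours except between Efnb3 and Efnb2 in PE.

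Of the A class, no ligand and no receptor passed edgeR's test. At an unadjusted p under 0.05 there were 1 receptor higher, 2 receptors lower, 1 ligand higher and 1 ligand lower, and DESeq2 called 0 receptors and 1 ligand, Efna1, lower. Efna1, a ligand of Epha2 known from blood vessel growth, had the highest mean per kb of all members in both stages, with Efna5 just above it in EE3. It was at 30.7, 37.5 and 16.1 CPM in EE and 57.9, 57.7 and 56.1 CPM in PE. The PE libraries lay within a narrow range and EE3 was the lowest of all. The log2 fold change was -1.02 (SE 0.30, adjusted p = 0.0602 from edgeR). The call was made with DESeq2 (0.013), library size alone (0.0444), no filter (0.018) and the replicate number as a block (0.0169). It was made in none of the 6 fits that left out 1 library, where the adjusted p was 0.0573 to 0.151 from edgeR.

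Efna5, a ligand known for its gradient in the visual system, had the opposite sign, at 47.1, 48.0 and 40.4 CPM in EE and 24.4, 31.9 and 33.8 CPM in PE (log2 fold change 0.59, SE 0.22, adjusted p = 0.125 from edgeR). Its libraries did not overlap, yet it did not pass. Within a library, Efna5 counts were 1.53, 1.28 and 2.51 times those of Efna1 in EE and 0.421, 0.552 and 0.603 times in PE. This ratio could not overlap, since Efna5 lay above PE and Efna1 below PE in every EE library. Efna4, at 9.88 ± 4.49 CPM in EE and 17.02 ± 8.94 CPM in PE, Efna2, at 3.42 ± 1.10 CPM in EE and 2.94 ± 0.371 CPM in PE, and Efna3, under 0.6 CPM in every library, overlapped. Efna1, Efna3 and Efna4 lie together between 89271733 and 89338028 on chromosome 3. Of the exon bases, 14.1% of Efna3 and a smaller share of Efna4 overlap genes on the other strand, from which reads of these unstranded libraries cannot be told apart.

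Epha7, known from the topographic mapping of neurons, had the highest mean of the EphA receptors in both stages, with 38.6% of their summed level per kb in EE and 47.4% in PE. It was at 47.2, 43.5 and 22.997 CPM in EE and 46.6, 65.7 and 72.8 CPM in PE (log2 fold change -0.70, SE 0.30, adjusted p = 0.179 from edgeR). EE1 was at the level of PE1, so the stages overlapped, and in EE3 Epha4 was above Epha7 per kb. Epha4, which binds ephrins of both classes, had the second mean per kb in both stages, though Epha2 was above it in EE1, and was below PE in every EE library, at 18.3 ± 5.72 CPM in EE and 27.2 ± 3.27 CPM in PE (adjusted p = 0.244 from edgeR). Epha3 had a log2 fold change of -0.57 (SE 0.34) and Epha2, an EphA of epithelia, one of 0.57 (SE 0.40), and both overlapped.

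Epha1 was the only receptor above PE in every EE library, at 5.34 ± 0.0666 CPM in EE and 2.71 ± 0.957 CPM in PE (SD, n = 3 each), with a log2 fold change of 0.98 (SE 0.39, adjusted p = 0.154 from edgeR). Of its exon bases 6.0% overlap Zyx, an abundant gene of the cytoskeleton, on the other strand. Epha8 and Epha10 stayed under 1.4 CPM and did not pass. Epha5, a receptor of neurons, had 0 counts in all EE libraries and 1, 0 and 10 counts in PE. With reads pooled over each stage, the PE level of Epha5 was 3.00 times the level that 3 counts would give in EE. This allows for counting error in EE only. It leaves out counting error in PE and the spread between pools, and PE3 held 10 counts while PE2 held 0. With reads in 2 libraries Epha5 was not tested. Epha6 had 0 counts in EE and 1 in PE.

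**Figure D4:**
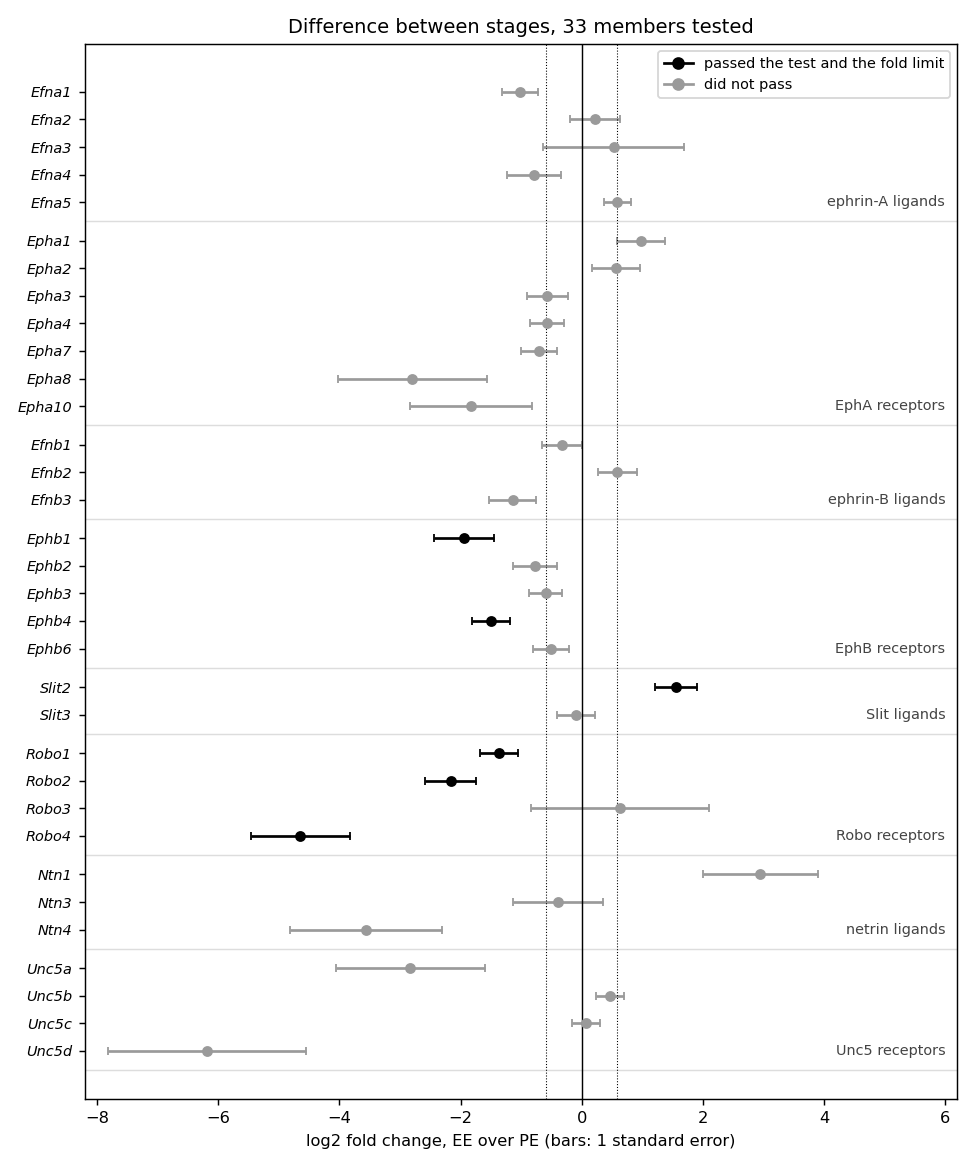
Log2 fold change, EE over PE, with 1 standard error for the 33 members tested by edgeR, with each ligand subfamily beside its receptor family. Black marks members that passed and dotted lines stand at the fold limit of about 1.5-fold either way. Robo and EphB receptors hold all 5 members that passed on the negative side and Slit2 is the only 1 on the positive side, and genes with few counts have the widest bars. The point of Unc5d, at 0 counts in all EE libraries, rests on a fitted value and is no bound.

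Unc5b, a receptor for netrin and Flrt proteins known from blood vessel branching, had the highest CPM of all members in EE. It was at 72.2, 58.3 and 55.3 CPM in EE and 34.3, 56.3 and 44.1 CPM in PE (log2 fold change 0.46, SE 0.24, adjusted p = 0.261 from edgeR). The highest PE library lay just above the lowest EE library. Unc5c, which guides axons in the spinal cord and hindbrain, was at 36.6, 46.0 and 46.2 CPM in EE and 31.4, 46.9 and 44.4 CPM in PE (log2 fold change 0.07, SE 0.23). Unc5b and Unc5c made up nearly all of the Unc5 level, with Unc5b at 70.3% of the sum per kb in EE and 63.5% in PE.

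Unc5a and Unc5d were rare. Unc5a had 0, 4 and 0 counts in EE and 14, 10 and 12 counts in PE and did not pass (adjusted p = 0.191 from edgeR). Unc5d, a receptor of migrating neurons, had 0 counts in all EE libraries and 2, 15 and 13 counts in PE. With reads pooled over each stage, the PE level of Unc5d was 8.19 times the level that 3 counts would give in EE. This allows for counting error in EE only. It leaves out counting error in PE and the spread between pools, and PE1 held only 2 counts. The adjusted p of Unc5d was 0.0573 from edgeR, 0.034 with DESeq2, 0.0364 with limma on log2 values and 0.0321 without the filter on low counts. In the 3 fits without 1 library in which it was tested, the adjusted p was 0.0709 to 0.0975 from edgeR.

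The netrins were near the limit of detection. Ntn3 had the highest mean per kb in both stages, at 0.434, 0.799 and 1.77 CPM in EE and 1.77, 1.68 and 0.450 CPM in PE, and the stages overlapped. Per kb, Ntn1 was above Ntn3 in EE1 and Ntn4 above Ntn3 in PE3. Ntn1, the netrin of the floor plate and of vessels, had 37, 15 and 4 counts in EE and 3, 2 and 3 counts in PE, or 0.833 ± 0.703 CPM in EE and 0.104 ± 0.0226 CPM in PE (SD, n = 3 each). Its log2 fold change of 2.95 (SE 0.94) did not pass with edgeR (adjusted p = 0.0843), and it passed with DESeq2 (0.0325) and without EE3 (log2 fold change 3.39, adjusted p = 0.0203). Without EE1, which held most of the EE reads, the log2 fold change was 2.07. Ntn4, a netrin of basement membranes, ran the other way, with 0, 4 and 0 counts in EE and 7, 30 and 24 counts in PE (log2 fold change -3.56, SE 1.26, adjusted p = 0.113 from edgeR), and passed with DESeq2 (0.0411) and without EE2 (0.0497), where no EE reads were left and the fitted value of -7.21 is no bound. Ntn5 had 0 counts in all 6 libraries. The receptors Unc5b and Unc5c were at 31.4 to 72.2 CPM in every library, while no netrin gene measured here exceeded 1.8 CPM in any.

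Other genes of the netrin pathway were taken from a list of 18. Of 17 tested, 1 was higher in EE (5.88%, against 4.52% of all genes tested) and 2 were lower (11.8%, against 4.86%). Their median log2 fold change was 0.22. The attractive receptors were Neo1 (neogenin), at 30.1, 25.9 and 31.4 CPM in EE and 19.97, 29.3 and 21.8 CPM in PE (adjusted p = 0.490 from edgeR), and Dcc, which stayed under 1.8 CPM in every library (adjusted p = 0.210 from edgeR). Mcam, a cell adhesion molecule described as a netrin receptor, was higher at 201, 175 and 184 CPM in EE, against 41.8, 61.9 and 56.5 CPM in PE (log2 fold change 1.81, SE 0.20, adjusted p = 0.000751 from edgeR). Every EE library was far above every PE library.

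The membrane partners of Unc5 receptors were abundant. Flrt3 was lower at 251, 318 and 183 CPM in EE, against 541, 921 and 863 CPM in PE (log2 fold change -1.63, SE 0.27, adjusted p = 0.00544 from edgeR), and the call was kept in each of the 6 fits that left out 1 library. Flrt2, which the mouse needs for an intact epicardium, was above PE in every EE library at 229, 316 and 319 CPM in EE, against 109, 201 and 219 CPM in PE, but did not pass (log2 fold change 0.71, SE 0.27, adjusted p = 0.139 from edgeR). Dscam, a receptor for netrin in neurons, was lower at 0, 0.0444 and 0 CPM in EE, against 0.242, 0.820 and 0.562 CPM in PE (adjusted p = 0.0444 from edgeR). The call on Dscam was lost in each of the 6 fits that left out 1 library, with adjusted p-values of 0.0581 to 0.176.

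Of 17 co-receptors and effectors of Slit and Robo tested, 0 were higher in EE, against 4.52% of all genes tested. Lower were 2 (11.8%, against 4.86%), and the median log2 fold change was -0.22. At an unadjusted p under 0.05 there were 1 higher and 3 lower, and DESeq2 called 1 higher and 2 lower. Gpc1, a glypican that carries heparan sulphate and binds Slit, was lower at 7.11, 5.15 and 2.91 CPM in EE, against 14.9, 21.3 and 12.97 CPM in PE (log2 fold change -1.69, SE 0.38, adjusted p = 0.0227 from edgeR). Ndst1, an enzyme that sulphates heparan chains, was lower at 17.8, 19.5 and 19.7 CPM in EE, against 31.1, 48.4 and 32.2 CPM in PE (log2 fold change -0.97, SE 0.24, adjusted p = 0.0363 from edgeR). The adjusted p of Gpc1 was 0.072 without EE2 and 0.0998 without PE2, and that of Ndst1 was 0.0549 to 0.211 in the 5 fits without a library other than PE1. The GTPase-activating proteins that bind Robo gave no call, with Srgap2, the most abundant of the 3, at 31.5 to 42.4 CPM in EE and 20.5 to 33.9 CPM in PE. Of the exon bases of Gpc1, 18.9% overlap Ankmy1 on the other strand.

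Of 29 effectors and proteases of Eph and ephrin signalling tested, 1 was higher in EE (3.45%, against 4.52% of all genes tested). Lower were 5 (17.2%, against 4.86%), and the median log2 fold change was -0.18. The list held Gpr50 and Rhebl1, which have no settled place in this pathway. Without them 1 of 27 was higher (3.70%) and 4 were lower (14.8%). Vav3, a Rac exchange factor that Eph receptors recruit, was higher at 31.9, 36.1 and 51.1 CPM in EE, against 4.11, 5.39 and 6.97 CPM in PE (log2 fold change 2.85, SE 0.30, adjusted p = 0.000564 from edgeR). Arhgef15, an exchange factor of vessels and neurons, was lower at 2.73, 1.73 and 0.285 CPM in EE, against 15.4, 20.4 and 16.7 CPM in PE (log2 fold change -3.44, SE 0.60, adjusted p = 0.00708 from edgeR). Both calls were kept in each of the 6 fits that left out 1 library, and the log2 fold change of Arhgef15 was -4.07 without EE1.

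Tiam1, a Rac exchange factor, was lower at 0.954, 2.13 and 0.742 CPM in EE, against 6.28, 5.47 and 4.83 CPM in PE (adjusted p = 0.0255 from edgeR). Chn1, which switches off Rac downstream of Epha4, was lower at 5.59, 10.51 and 5.99 CPM in EE, against 16.3, 17.9 and 19.7 CPM in PE (adjusted p = 0.0325 from edgeR). The adjusted p of Tiam1 was 0.0692 without EE1, 0.0702 without PE1, 0.087 without PE2 and 0.0702 without PE3, and its log2 fold change was -2.72 without EE2. Chn1 passed only without EE2 (0.0183) among the 6 fits, at up to 0.131 in the others. The other 2 lower were Ngef, at 0 counts in all EE libraries, and Gpr50, named after their values were seen. The adjusted p of Ngef was 0.0763 without EE1 and 0.0797 without EE2, and it had reads in too few libraries to be tested without any 1 PE library, while that of Gpr50 was 0.0931 without PE1, 0.175 without PE2 and 0.11 without EE1. Of the exon bases of Chn1, 11.8% overlap antisense genes. The shedding protease Adam10, which cuts ephrin-A ligands, was at 64.2 to 78.9 CPM in EE and 81.3 to 91.8 CPM in PE and did not pass (adjusted p = 0.299 from edgeR).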

How the data were processed

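Mouse mRNA and small RNA were sequenced in EE and PE, 3 libraries each. The authors deposited whole-number counts, not normalized, per gene and per mature miRNA. The paper states quantification with RSEM on mm10 for mRNA, and HISAT2 with featureCounts for miRNA, while the processing notes of the submitters name STAR, featureCounts and Trim Galore (0.4.3.1). Column names that abbreviate epicardium-derived cells were read as EE by number.

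TMM factors were computed from the deposited counts, and stages were compared with edgeR 4.0.16 (R 4.3.3) for genes counted at least once in 3 or more libraries and miRNAs counted in all 3 libraries of a stage. The SE is the absolute log2 fold change over the square root of F. Levels per kb used the longest coding transcript of GENCODE. Members and lists were chosen with earlier results of these data known. Values per library are given for members called, the highest per kb of each subfamily and those at 0 in 1 stage with at least 10 counts in a library of the other. Partner genes named are those called, some of the 4 highest per list by level, plus Dcc and Neo1. Sdcbp, Acp1, Nck1, Dag1, Sdc1 and Dock1, also among the highest, did not pass and are not described. Other genes were added after their values were seen. Alternatives were DESeq2 1.42.0, RLE factors, library size alone, filterByExpr, no filter, no fold limit, limma 3.58.1 on log2(normalized count + 1), a replicate block and leaving out each library. Figures used matplotlib 3.10.9.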

Additional observations from a re-analysis of the deposited data

How the results depend on the processing

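With DESeq2, 2 members were higher in EE and 9 lower, against 1 and 5 with edgeR, the added ones being Ntn1, Efna1, Efnb3, Ntn4 and Unc5d; over all genes it gave 1734 higher and 1924 lower, against 1078 and 1159. It called 4 partner genes higher, against 2. Leaving out 1 library gave 0 to 2 members higher and 2 to 4 lower, and 2 partner genes higher and 2 to 7 lower, against 9. Library size alone moved the median log2 fold change of all genes to -0.18, from -0.06, and added Efna1 as lower. The calls on Robo2 and Robo4 were kept in every alternative, and those on Slit2, Robo1, Ephb1 and Ephb4 in every alternative that kept all libraries. Deviations of same-numbered EE and PE libraries from their stage means had r of -0.12, 0.07 and -0.02, and those of unlike number -0.239 to 0.225. With 3 libraries per stage this shows no pairing by number but cannot decide whether there is one. With the number as a replicate block, 1 member was higher and 6 lower, with Efna1 added, and 3 partner genes higher and 8 lower, with Flrt2 added and Dscam lost. The log2 fold change turned sign for members that did not pass. Leaving out 1 library gave -0.0109 to 0.461 for Efna2, -0.271 to 0.0585 for Slit3, -4.39 to 1.44 for Robo3 and -0.0874 to 0.18 for Unc5c. It was -0.0812 for Efna3 and -0.429 for Robo3 with limma, -0.0421 for Unc5c by library size alone and -0.681 for Robo3 with the block. The cause was not tested. miR-218-5p, counted in all 3 libraries of neither stage, could be fitted in 3 ways only, and passed in none: its log2 fold change was -1.76 without a filter, -1.91 without PE3 and -0.70 without EE2 (adjusted p of 0.581, 0.425 and 0.791 from edgeR). DESeq2, library size alone, the block and the other left-out libraries were run on the miRNAs that passed the filter, which miR-218-5p did not. Depth limits the netrins, Unc5a, Unc5d, Efna3, Epha5, Epha6, Epha8, Epha10, Slit1 and Robo3, each with fewer than 50 counts in every library.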
